A study of Oryctolagus cuniculus with 20 samples.

Results

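The genes described here are those whose name in the deposited rabbit table marks them as a caspase, a member of the BCL2 family, an inhibitor of apoptosis, a receptor-interacting kinase or an adaptor of death receptors. Members were taken by name. A gene belonged if its name began with CASP and a number, BCL2, BIRC and a number, RIPK and a number or TRAF and a number, or was 1 of 19 single names such as BAX, MCL1, XIAP, APAF1, FAS and TNFSF10. The rule found 38 of 23669 genes. Of the 19 single names, 8 were not found by name (BAD, BID, BIK, BBC3, PMAIP1, CYCS, DIABLO and FADD). The series holds 20 RNA sequencing libraries from rabbits (Oryctolagus cuniculus), 4 in each of 5 groups. In the grafts, common carotid artery had been placed in a vein and was collected 14 or 30 days after surgery. The controls were the opposite carotid arteries, which had not been operated on, of the same days, and the fifth group was external jugular vein with no operation. The title of the series asks about thrombospondin-4 and smooth muscle cell apoptosis. Strain, age and sex are not given in the sources used here, no genetic change or drug is named in the labels, and every sample, controls included, carries the treatment label for transplantation and the cell line label HASMC, although the other labels describe rabbit vessels. The labels name the libraries of each group as biological repeats without saying that they came from separate animals, so p-values measure the spread between these samples.

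In apoptosis a cell dismantles itself with caspases, proteases that are made as inactive precursors. On the mitochondrial path BAX and BAK1 open the outer membrane unless BCL2 and its relatives hold them back, and cytochrome c then joins APAF1 to activate CASP9, which activates the caspases that carry out cell death. On the receptor path a ligand such as TNFSF10 (TRAIL) or a receptor such as FAS recruits adaptors and CASP8, while CFLAR, the BIRC proteins and XIAP restrain the caspases. Much of this control lies in cleavage, binding and protein turnover, which RNA levels do not show. In arteries and vein grafts, death of smooth muscle cells is a known part of early remodelling.

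Values are FPKM, fragments per kilobase of transcript scaled to library size, so levels can be compared between genes per length. Read numbers are unknown. Changes are differences of log2(FPKM + 1), which understate the change of genes at low FPKM. Of the 38 genes, 26 reached 1 FPKM in at least 4 libraries and were tested among 8657 genes. The other 12 stayed under this filter, among them BCL2L11, BCL2L12, BCL2L14, BIRC7, BMF, CASP8, CASP9, CASP10, CASP14 and TRAF5, and CASP14 was listed at 0 in all 20 libraries. A listed 0 can be a failed estimate in a table without counts, and 6 tested genes (BCL2L2, BCL2L13, BCL2L15, BIRC6, CASP2 and TRAF3) were listed at 0 in at least 1 library.

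The libraries of control day 14 were far more alike than those of any other group. Over 666 genes above 30 FPKM in all libraries, the median SD of log2 values was 0.0585 there, against 0.289 in graft day 14, 0.148 in graft day 30, 0.163 in control day 30 and 0.112 in vein. In each of the other 4 groups, 1 library lay closest to a weighted mean of its fellows and is called mixture-like here: graft day 14 replicate 3, graft day 30 replicate 4, control day 30 replicate 2 and vein replicate 4. Counts were therefore repeated with control day 14 as 1 sample, without the mixture-like libraries, and under both changes together, which were chosen once the data had been seen.

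MCL1, an anti-apoptotic BCL2 relative with a short-lived protein, had the highest level of all 38 genes in 19 of 20 libraries. Its level was 63.8, 54.3, 89.3 and 94.5 FPKM in the 4 grafts of day 14 and 80.6, 91.1, 89.0 and 88.8 FPKM in their controls. In grafts of day 30 it was 105, 83.8, 64.1 and 70.6 FPKM, in controls of day 30 63.1, 72.4, 104 and 69.8 FPKM and in vein 59.9, 42.9, 55.9 and 47.6 FPKM. Grafts and controls overlapped on both days. The difference from controls passed on neither day (log2 change -0.24, SE 0.19, adjusted p = 0.293 at day 14, and log2 change 0.07, SE 0.19, adjusted p = 0.824 at day 30). At day 14 it passed as lower under median-of-ratios scaling and under quantile normalization.

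Below MCL1 the order of levels differed between grafts and controls. In controls of day 14 BCL2L1 came next, at 37.5 ± 2.74 FPKM (mean ± SD, n = 4 libraries), with no overlap with its neighbours in the order, and then BAX, at 11.6 ± 2.66 FPKM, and BOK, at 10.1 ± 0.259 FPKM, which overlapped. In grafts of day 14 BCL2A1 came next, at 50.4 ± 20.8 FPKM, followed by BAX, BOK and BAK1 at means of 37.9, 30.2 and 29.6 FPKM, each overlapping with the next. BCL2L1 stood in ninth place there. In grafts of day 30 the order began with MCL1, BCL2A1, BOK, BAX, BIRC3, BCL2L1 and BAK1, and in vein with MCL1, BOK, BCL2L1 and TRADD.

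At day 14, the genes for the 3 pore-forming BCL2 relatives BAX, BAK1 and BOK, for the caspase scaffold APAF1, for the death ligand TNFSF10 and for the TNF receptor adaptor TRADD were higher in grafts than in controls, and the genes for the restraining proteins BCL2 and BCL2L1 were lower. BCL2A1, also a restraining gene, rose most. Of 26 genes tested, 18 or 69.2% passed (limma, adjusted p below 0.05), 14 higher and 4 lower in the grafts. Over all 8657 genes 53.5% passed, 36.5% higher and 17.0% lower, so a call at day 14 was common for any gene. The median log2 change was 0.69 over the 26 and 0.26 over all genes tested. Grafts and controls did not overlap for 16 of the 26, against 50.1% of all genes, 33.9% higher and 16.1% lower. With control day 14 counted as 1 sample 11 passed, 9 higher and 2 lower, and BIRC3, CFLAR, RIPK1, RIPK2, TRAF1, TRAF3 and XIAP no longer did. With the mixture-like libraries also left out 10 passed, 8 higher and 2 lower.

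At day 30 fewer genes passed, 11 of 26, with 9 higher and 2 lower in the grafts, and 37.6% of all genes passed, 26.0% higher and 11.6% lower. The share of the 26, 42.3%, was thus near that of all genes. Their median log2 change was 0.34, against 0.18 over all genes. The 9 higher genes (APAF1, BAK1, BAX, BCL2A1, BCL2L15, BOK, TNFSF10, TRADD and TRAF4) were also those whose grafts and controls did not overlap, against 34.5% of all genes without overlap, 23.3% higher and 11.2% lower. The 2 lower genes were BCL2 and BCL2L1. Without control day 30 replicates 2 and 3, which differed from the other controls in BIRC3 and RIPK2, 12 passed, all higher, and 7 were among the 11. Without the mixture-like libraries 8 passed, 7 higher and 1 lower, and BCL2L1, BCL2L15 and TRAF4 no longer did.

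**Figure D1:**
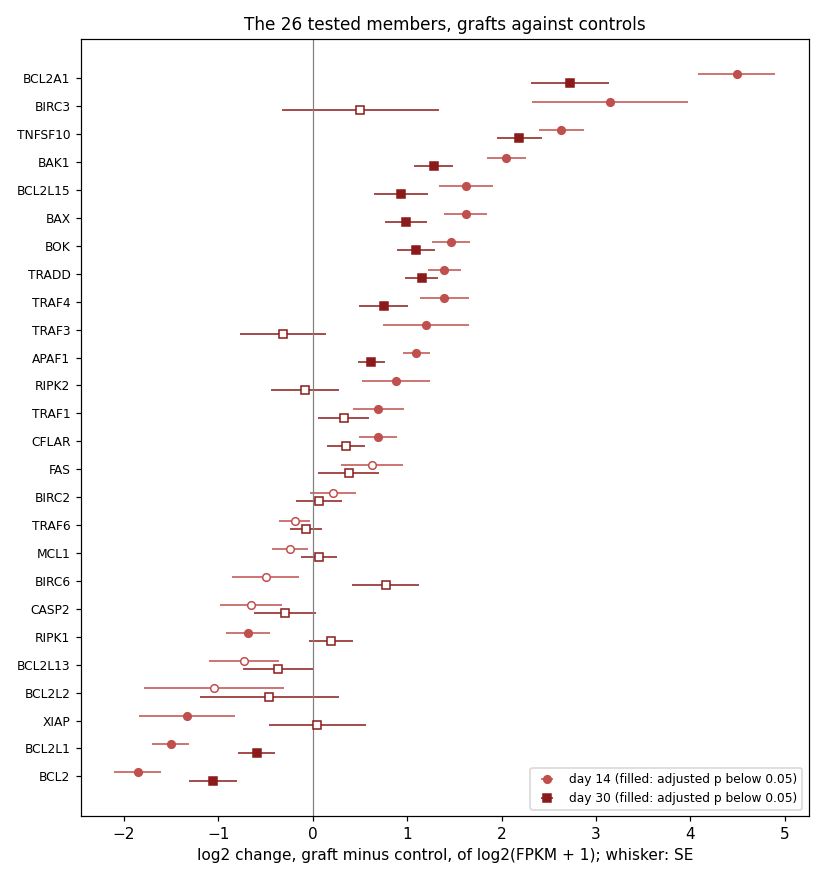
Difference between grafts and controls on the scale of log2(FPKM + 1) for the 26 genes tested (x axis, whiskers: SE), at day 14 (circles) and day 30 (squares), with filled symbols for adjusted p below 0.05. BCL2A1 lies farthest to the right at day 14 (4.49) and BCL2 farthest to the left (-1.85).

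Scaling of the libraries bears on the split at day 14. Median-of-ratios scaling moved the median change of all genes from 0.26 to 0.03 and gave 16 calls, 10 higher and 6 lower. Under that scaling 2327 of 8589 genes were higher and 2153 lower. Quantile normalization gave 18 calls, 10 higher and 8 lower. Counts of other settings without a share of all genes, here and above, are not read as a trait of these genes. Measured from the median of all genes, log2 changes are 0.26 lower than printed at day 14 and 0.18 lower at day 30. At day 14, APAF1, BAK1, BAX, BCL2, BCL2A1, BCL2L1, BOK, TNFSF10, TRADD and TRAF4 passed in all alternative settings that tested them.

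The pore formers came first among the BCL2 family. BAX, whose protein moves to mitochondria when a cell is committed to die, was at 31.3, 29.6, 38.7 and 52.1 FPKM in the grafts of day 14 and 12.6, 7.86, 14.1 and 11.9 FPKM in their controls. All 4 grafts lay above all 4 controls (log2 change 1.62, SE 0.22, adjusted p = 8.03e-06). At day 30 BAX was at 15.3, 34.1, 25.3 and 32.5 FPKM in grafts and 12.4, 12.6, 13.6 and 11.5 FPKM in controls, again without overlap, although graft replicate 1 lay close above the controls (log2 change 0.98, SE 0.22, adjusted p = 0.00189). Under TPM scaling the day 30 call was lost (adjusted p = 0.0785). The 8 controls and the 4 veins, at 9.05 to 12.4 FPKM, spanned a similar range.

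BAK1, the partner that sits in the mitochondrial membrane from the start, was at 32.8, 28.6, 28.2 and 28.9 FPKM in grafts of day 14 and 5.34, 5.4, 9.4 and 6.03 FPKM in controls. The lowest graft lay well above the highest control (log2 change 2.05, SE 0.20, adjusted p = 1.8e-07). At day 30 the grafts held 16.0, 26.4, 22.7 and 17.1 FPKM and the controls 5.6, 7.1, 11.7 and 7.45 FPKM (log2 change 1.28, SE 0.20, adjusted p = 7.85e-05). The day 30 grafts all lay below the day 14 grafts, but that change did not pass (-0.53, SE 0.20, adjusted p = 0.0844).

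BOK, a less studied relative of both, was at 36.5, 35.0, 27.2 and 22.2 FPKM in grafts of day 14 against 10.2, 10.4, 10.2 and 9.77 FPKM in controls (log2 change 1.46, SE 0.20, adjusted p = 6.74e-06). Grafts and controls of day 30 held 24.8, 23.5, 33.4 and 33.0 FPKM and 12.3, 13.9, 19.2 and 7.82 FPKM (log2 change 1.10, SE 0.20, adjusted p = 0.000266). Vein held 21.6, 22.5, 20.3 and 20.4 FPKM, above all controls and below all grafts but replicate 4 of day 14. The grafts thus lay above the controls without overlap for all of BAX, BAK1 and BOK on both days.

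**Figure D2:**
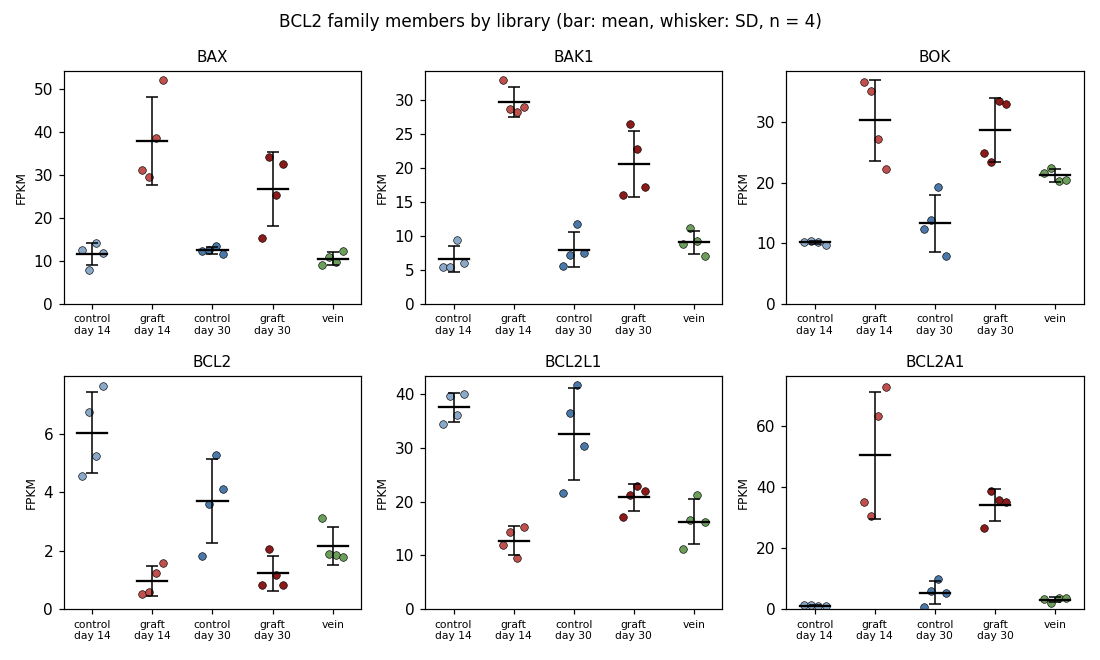
FPKM of BAX, BAK1, BOK, BCL2, BCL2L1 and BCL2A1 in each library (points) by group, with mean (bar) and SD (whisker, n = 4). Grafts lie above controls for BAX, BAK1, BOK and BCL2A1 on both days, and below for BCL2 and BCL2L1 at day 14.

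Among the restraining genes, BCL2 itself, the founding member of the family, fell to 0.51, 0.57, 1.22 and 1.58 FPKM in grafts of day 14 from 4.57, 6.75, 5.23 and 7.63 FPKM in controls (log2 change -1.85, SE 0.25, adjusted p = 6.51e-06). Every graft lay below every control. BCL2 at day 30 was 0.83, 2.07, 1.17 and 0.82 FPKM in grafts and 1.83, 3.59, 5.27 and 4.1 FPKM in controls (log2 change -1.06, SE 0.25, adjusted p = 0.00273). There graft replicate 2 lay above control replicate 1. Without control day 30 replicates 2 and 3 the call was lost (adjusted p = 0.0514). The vein mean, 2.16 FPKM, lay between those of grafts and controls.

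BCL2L1, which encodes BCL-XL, ranked second in controls of day 14, and in grafts it fell by 1.51 on the log2 scale, from 34.4, 39.6, 36.0 and 40.1 FPKM to 11.9, 14.4, 9.41 and 15.3 FPKM (SE 0.20, adjusted p = 4.31e-06). The groups were well apart. At day 30 grafts held 17.1, 21.2, 22.8 and 21.9 FPKM and controls 21.6, 36.5, 41.7 and 30.4 FPKM, with control replicate 1 among the grafts (log2 change -0.59, SE 0.20, adjusted p = 0.0233). That call was lost without graft replicate 1 (adjusted p = 0.0701), control replicate 2 (0.0689) or control replicate 3 (0.0843), and without both of these controls (0.324).

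BCL2A1 went the other way. Its protein restrains BAX-type pore formers and is best known from white blood cells. It was at 35.1, 30.4, 63.2 and 72.8 FPKM in grafts of day 14 and 1.41, 1.26, 0.92 and 1.0 FPKM in controls (log2 change 4.49, SE 0.41, adjusted p = 6.24e-08). No other of the 26 genes had a larger change. At day 30 the grafts held 26.4, 38.6, 35.8 and 35.1 FPKM and the controls 0.64, 5.97, 9.75 and 5.14 FPKM, where control replicate 1 was lowest (log2 change 2.73, SE 0.41, adjusted p = 4.2e-05). Graft day 14 replicates 3 and 4 were high and replicates 1 and 2 lower, and the summed macrophage markers below fell in the same order of pairs. So did BAX, APAF1, BCL2, BCL2L15, XIAP and the summed proliferation genes, while BOK had the reverse order. The FPKM sums of the libraries were also reversed, at 557827 and 671582 in replicates 1 and 2 and 422889 and 371438 in replicates 3 and 4. The split is thus not particular to BCL2A1 and macrophage markers.

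BCL2L2, the gene for BCL-W, varied too much within groups to be read. It was at 0, 0, 3.07 and 4.86 FPKM in grafts of day 14 and 0.77, 9.52, 4.83 and 3.02 FPKM in controls, and the difference did not pass (log2 change -1.05, SE 0.74, adjusted p = 0.246). Of the other BCL2-like genes, BCL2L15 was at 1.2, 1.06, 4.24 and 4.05 FPKM in grafts of day 14 and 0, 0.060, 0.060 and 0.18 FPKM in controls (log2 change 1.62, SE 0.29, adjusted p = 0.000118). The day 30 values were 0.62, 1.91, 2.31 and 1.33 FPKM and 0, 0.18, 0.51 and 0.53 FPKM (log2 change 0.93, SE 0.29, adjusted p = 0.0156). The day 30 call of this low gene was lost without graft replicate 3 (adjusted p = 0.0546), and the day 14 call with control day 14 as 1 sample and the mixture-like libraries left out (adjusted p = 0.0975). BCL2L13, a mitochondrial protein of the family, passed on neither day, with means of 0.59 and 1.39 FPKM at day 14. There it passed as lower in grafts under quantile normalization (adjusted p = 0.0195), with library weights (0.00057) and without graft replicate 4 (0.013). Of the BH3-only genes, whose proteins set off BAX and BAK1, BAD, BID, BIK, BBC3 and PMAIP1 were not found by name. Their levels are thus not known here. BCL2L11 (BIM) and BMF were found but hardly seen. BCL2L11 was above 0 in control day 30 replicate 4 (0.96 FPKM) and vein replicate 4 (0.18 FPKM), and BMF in control day 30 replicate 2 (0.17 FPKM).

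The ratio of BAX to BCL2 is often used to describe this balance. As log2 of the plain FPKM ratio it was 5.94, 5.70, 4.99 and 5.04 in the grafts of day 14 and 1.46, 0.22, 1.43 and 0.64 in their controls. In grafts of day 30 it was 4.21, 4.04, 4.43 and 5.31, and in controls of day 30 it was 2.76, 1.81, 1.36 and 1.49. Vein lay at 1.54, 2.54, 2.40 and 2.80. The means ± SD were 5.42 ± 0.47 and 0.94 ± 0.61 at day 14, 4.50 ± 0.56 and 1.85 ± 0.63 at day 30, and 2.32 ± 0.55 in vein (n = 4 each). Grafts of either day lay above all controls and veins. The ratio was chosen for these genes after results of these data were known, so it carries no test.

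**Figure D3:**
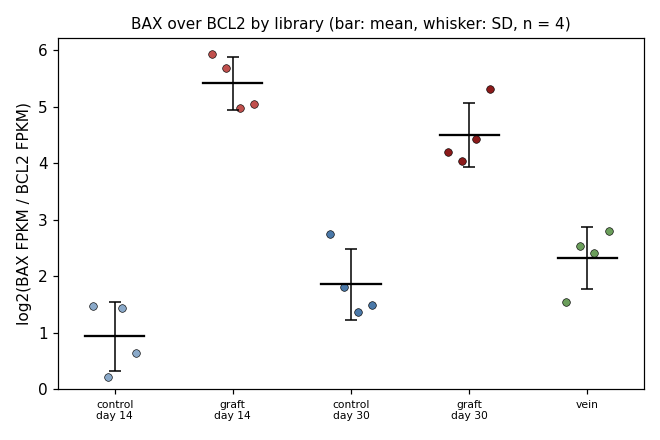
log2 ratio of BAX FPKM to BCL2 FPKM in each library (points) by group, with mean (bar) and SD (whisker, n = 4). The 8 grafts lie between 4.04 and 5.94, above the 8 controls and 4 veins, which lie between 0.22 and 2.80.

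Downstream of the mitochondria, APAF1 and the caspases described here were at low levels, while CYCS and DIABLO, given at the end, were higher. APAF1, the scaffold on which CASP9 is activated, was at 5.71, 4.56, 7.4 and 8.5 FPKM in grafts of day 14 and 2.72, 2.35, 2.21 and 2.54 FPKM in controls, without overlap (log2 change 1.10, SE 0.15, adjusted p = 6.1e-06). By day 30 grafts held 4.88, 5.34, 4.04 and 5.09 FPKM against 2.39, 2.92, 3.28 and 2.59 FPKM, again without overlap (log2 change 0.62, SE 0.15, adjusted p = 0.00277). Under TPM scaling the day 30 call was lost (adjusted p = 0.195). Vein held 4.68, 3.52, 3.87 and 4.72 FPKM.

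Caspase RNA gave little to compare. CASP9, the initiator on the mitochondrial path, reached 1 FPKM in 3 of 20 libraries and lay at 0.56, 0.080, 1.16 and 0.42 FPKM in grafts of day 14 and 0.61, 0.33, 0.35 and 0 FPKM in controls. At day 30 it lay at 0, 0.86, 0.31 and 0.80 and 1.16, 0.42, 0 and 0.97 FPKM, so grafts and controls overlapped on both days. CASP8, the initiator on the receptor path, was listed above 0 only in vein replicate 2, at 0.040 FPKM, and CASP10 did not exceed 0.18 FPKM. CASP14, a skin gene, was listed at 0 throughout. CASP2 was the only caspase tested, at 0, 0, 0.37 and 0.85 FPKM in grafts of day 14 and 1.11, 0.28, 1.37 and 1.42 FPKM in controls, and it passed on neither day (log2 change -0.65, SE 0.33, adjusted p = 0.102 at day 14, and log2 change -0.29, SE 0.33, adjusted p = 0.525 at day 30). At day 14 CASP2 passed as lower in grafts under quantile normalization (log2 change -0.95, adjusted p = 0.0214), with library weights (-0.52, 0.0419), without graft replicate 4 (-0.84, 0.0499) and without control replicate 2 (-0.86, 0.0413). For the caspases under the filter no difference could be tested, and its absence is not shown.

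The inhibitors of apoptosis moved in different directions. BIRC3, a ubiquitin ligase of TNF receptor complexes and a well-known NF-kB target, was at 22.5, 13.4, 19.8 and 17.8 FPKM in grafts of day 14 and 0.78, 1.81, 0.93 and 1.24 FPKM in controls (log2 change 3.15, SE 0.83, adjusted p = 0.00377). Grafts and controls did not overlap, and the call was lost when control day 14 counted as a single sample (adjusted p = 0.121). At day 30 grafts held 37.9, 19.4, 21.9 and 24.9 FPKM, while controls ran from 2.84 to 118 FPKM, and the difference did not pass (log2 change 0.50, SE 0.83, adjusted p = 0.677). XIAP, which binds and blocks active caspases, was at 1.2, 0.17, 4.82 and 5.13 FPKM in grafts of day 14 and 6.79, 7.51, 7.17 and 5.86 FPKM in controls (log2 change -1.33, SE 0.51, adjusted p = 0.0354). Grafts 1 and 2 were low and 3 and 4 nearly reached the controls. The XIAP call was lost without graft replicate 1 (adjusted p = 0.0906) or 2 (0.14, with a log2 change of -0.87) and without any 1 of the 4 controls (0.0508 to 0.0691). It was also lost with no filter, under TPM scaling, with only the groups compared and with library weights (adjusted p = 0.0506 to 0.0744, with a log2 change of -0.47 under the weights). At day 30 XIAP was at 4.84 ± 0.981 and 4.78 ± 1.77 FPKM and did not pass.

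BIRC2, the sister gene of BIRC3, stayed between 3.16 and 10.9 FPKM in all 20 libraries and passed on neither day (log2 change 0.22, SE 0.24, adjusted p = 0.477, and log2 change 0.06, SE 0.24, adjusted p = 0.869). BIRC6, a very large protein of the family, averaged 1.25 ± 0.811 FPKM in grafts and 2.01 ± 0.382 FPKM in controls at day 14, and 1.24 ± 0.735 and 0.39 ± 0.78 FPKM at day 30, and passed on neither day. At day 30 it passed as higher in grafts with a pseudocount of 0.1 (adjusted p = 0.0373), with library weights (0.00698) and without control replicate 3 (0.0136). BIRC7 did not exceed 0.57 FPKM.

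On the receptor path TNFSF10, the gene of the death ligand TRAIL, showed the clearest difference. It was at 17.7, 11.5, 11.1 and 14.1 FPKM in grafts of day 14 and 1.84, 1.67, 0.42 and 1.66 FPKM in controls (log2 change 2.63, SE 0.24, adjusted p = 6.17e-08), a ratio of means of 9.72. TNFSF10 at day 30 was 9.17, 14.2, 13.5 and 12.2 FPKM against 1.48, 1.48, 2.03 and 2.68 FPKM (log2 change 2.19, SE 0.24, adjusted p = 1.35e-06). Vein, at 14.6, 6.93, 11.5 and 10.2 FPKM, lay above all 8 controls, with replicate 2 below every graft and the others within the range of the grafts. FAS, the receptor for the FAS ligand, was at 13.5, 9.98, 10.0 and 8.16 FPKM in grafts of day 14 and 7.52, 4.96, 6.04 and 6.9 FPKM in controls. The groups did not overlap, yet the difference did not pass (log2 change 0.63, SE 0.33, adjusted p = 0.118). It passed with only the groups compared (adjusted p = 0.0161) and with library weights (0.00664). At day 30 it was at 18.3, 11.6, 16.9 and 15.9 FPKM in grafts and 6.31, 16.4, 21.0 and 8.22 FPKM in controls, where control replicate 2 stood among the grafts, replicate 3 above them and replicates 1 and 4 below them (log2 change 0.38, SE 0.33, adjusted p = 0.402).

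TRADD, the adaptor that joins the TNF receptor to its signalling complexes, was at 12.7, 20.01, 16.4 and 21.8 FPKM in grafts of day 14 and 6.72, 5.12, 6.08 and 6.14 FPKM in controls (log2 change 1.40, SE 0.17, adjusted p = 2.53e-06). In day 30 vessels TRADD was at 11.7, 14.0, 15.2 and 18.2 FPKM against 8.08, 5.96, 5.05 and 5.33 FPKM (log2 change 1.15, SE 0.17, adjusted p = 4.38e-05), and neither day showed overlap. CFLAR, whose protein FLIP blocks CASP8, was at 6.33, 5.22, 8.32 and 8.65 FPKM in grafts of day 14 and 3.26, 5.49, 3.66 and 3.74 FPKM in controls, where control replicate 2 lay above graft replicate 2 (log2 change 0.69, SE 0.20, adjusted p = 0.0081). The CFLAR call was lost under median-of-ratios scaling (adjusted p = 0.0756), TPM scaling (0.178) and quantile normalization (0.09). At day 30 8.67, 8.0, 7.12 and 7.63 FPKM in grafts and 3.56, 7.12, 5.8 and 8.15 FPKM in controls did not pass (log2 change 0.35, SE 0.20, adjusted p = 0.191).

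RIPK1, the kinase that can turn the same complexes towards survival or death, was the only receptor-side gene of the 26 lower at day 14. It was at 2.91, 1.68, 5.13 and 2.18 FPKM in grafts and 5.52, 4.92, 5.24 and 4.68 FPKM in controls (log2 change -0.69, SE 0.23, adjusted p = 0.0181). Graft replicate 3 stood among the controls, and the call was lost without graft replicate 2 (adjusted p = 0.0688) or 4 (0.0536). With control day 14 as 1 sample it was lost too (adjusted p = 0.228), and with library weights, at a log2 change of -0.08 (adjusted p = 0.652). At day 30 it was at 3.95, 7.12, 7.39 and 5.31 and 3.56, 6.81, 5.29 and 4.61 FPKM, with no difference that passed (log2 change 0.19, SE 0.23, adjusted p = 0.563). RIPK2, the kinase of the NOD receptors, was at 6.01, 5.12, 5.91 and 4.89 FPKM in grafts of day 14 and 2.13, 2.64, 2.51 and 2.82 FPKM in controls (log2 change 0.88, SE 0.36, adjusted p = 0.0483). That call was lost whichever of the 8 libraries was left out (adjusted p = 0.063 to 0.0991). RIPK2 did not pass at day 30 (log2 change -0.08, SE 0.36, adjusted p = 0.883), but without control replicates 2 and 3 it passed as higher in grafts (log2 change 0.87, adjusted p = 0.00127).

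**Figure D4:**
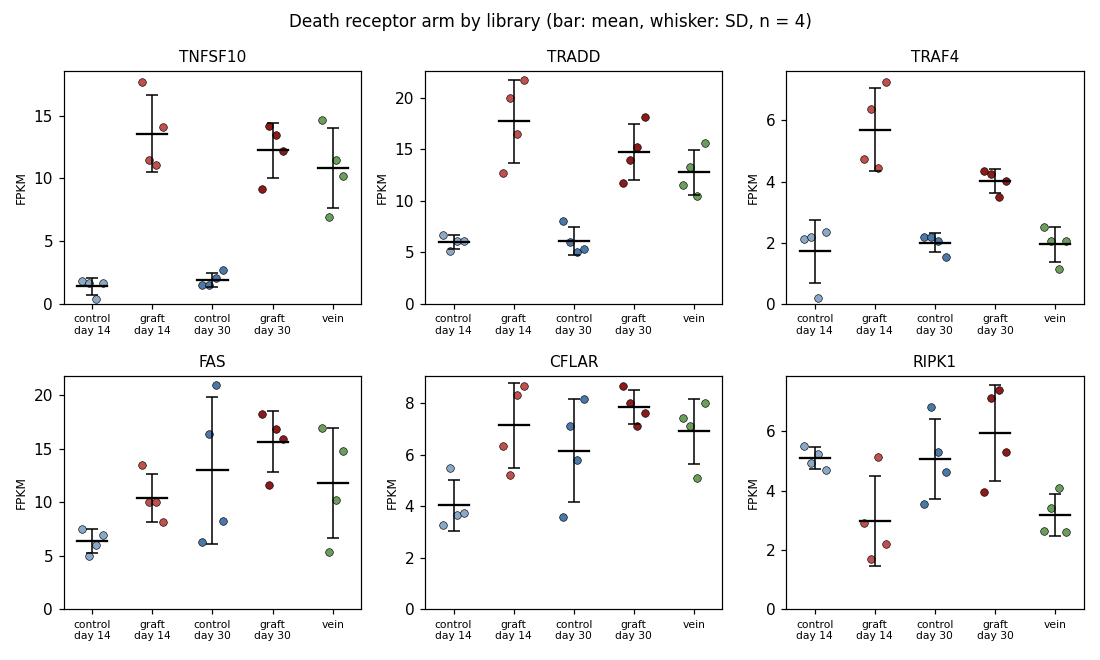
FPKM of TNFSF10, TRADD, TRAF4, FAS, CFLAR and RIPK1 in each library (points) by group, with mean (bar) and SD (whisker, n = 4). For TNFSF10, TRADD and TRAF4 the grafts lie above the controls on both days, and for FAS the controls of day 30 run from 6.31 to 21.0 FPKM.

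Of the TRAF adaptors, which pass signals of TNF and Toll-like receptors on to NF-kB, TRAF4 was higher in grafts at day 14, and at day 30 its call depended on the setting. It was at 4.74, 6.36, 4.43 and 7.27 FPKM in grafts of day 14 and 2.13, 2.19, 0.19 and 2.35 FPKM in controls (log2 change 1.39, SE 0.26, adjusted p = 0.000216). Its day 30 values were 4.35, 4.25, 3.49 and 4.01 FPKM and 2.19, 2.18, 2.07 and 1.54 FPKM, without overlap (log2 change 0.75, SE 0.26, adjusted p = 0.0313). The day 30 call was lost in 12 of 19 settings. It was lost with a pseudocount of 0.1 (adjusted p = 0.132), with no filter (0.0513), and under median-of-ratios scaling (0.0932), TPM scaling (0.23) and quantile normalization (0.214, with a log2 change of 0.44). Leaving out the mixture-like libraries gave 0.106, and leaving out control replicates 2 and 3 together gave 0.0811. It was also lost without graft replicate 1 (adjusted p = 0.0638), 2 (0.0654) or 4 (0.059), and without control replicate 3 (0.0503) or 4 (0.0841).

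TRAF1, itself induced by NF-kB, was at 2.82, 2.7, 2.99 and 1.95 FPKM in grafts of day 14 and 1.91, 0.64, 1.65 and 0.93 FPKM in controls (log2 change 0.69, SE 0.27, adjusted p = 0.0383). The TRAF1 call was lost without graft replicate 1, 2 or 3 or control replicate 2 or 4 (adjusted p = 0.0666 to 0.123) and under each of the 3 other scalings (0.129 to 0.229). TRAF3, a brake on the alternative NF-kB path, was at 1.61, 0.97, 4.86 and 2.25 and 1.07, 0.070, 0.11 and 0.43 FPKM (log2 change 1.20, SE 0.46, adjusted p = 0.0342). The TRAF3 call was lost without graft replicate 3 or 4 or control replicate 2, 3 or 4 (adjusted p = 0.0562 to 0.122) and under the same scalings (0.0573 to 0.0928). TRAF6, the adaptor of Toll-like receptors, stayed between 2.38 and 6.04 FPKM everywhere and passed on neither day. At day 14 it passed as lower in grafts under median-of-ratios scaling (log2 change -0.42, adjusted p = 0.0337) and quantile normalization (-0.50, 0.0102). TRAF5 reached 1 FPKM in 1 library. At day 30 neither TRAF1 (log2 change 0.33, SE 0.27, adjusted p = 0.372) nor TRAF3 (log2 change -0.31, SE 0.46, adjusted p = 0.636) passed, although TRAF3 passed as lower with library weights (log2 change -1.62, adjusted p = 0.0023).

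The difference between the graft effects of day 30 and day 14 was tested directly. It passed for 1 of 26 genes, BCL2L1, and for 12.9% of all genes, 5.38% with the higher graft effect at day 30 and 7.57% with the lower. For BCL2L1 the graft effect at day 30 was higher by 0.91 (SE 0.28, adjusted p = 0.0378), from -1.51 to -0.59. This call was lost in 11 of 16 fits that left out 1 library: without graft day 14 replicate 1 or 3, any control of day 14, graft day 30 replicate 2, 3 or 4, or control day 30 replicate 1 or 4 (adjusted p = 0.0514 to 0.0799). BCL2A1 came nearest of the others (-1.77, SE 0.58, adjusted p = 0.0523). It passed with the filter at 5 FPKM (adjusted p = 0.0421), without genes listed at 0 (0.0416), with the replicate block (0.0375), with library weights (2e-06), and without graft day 14 replicate 1 (0.0427) or 2 (0.0334) or control day 30 replicate 1 (0.00084). The genes called at day 14 and not at day 30 (BIRC3, CFLAR, RIPK1, RIPK2, TRAF1, TRAF3 and XIAP) are therefore not shown to differ between the days, with adjusted p from 0.084 for RIPK1 to 0.578 for TRAF1. RIPK1 passed with the replicate block (0.0467), without graft day 14 replicate 3 (0.0202) and without the mixture-like libraries (0.0315), and BIRC3 passed without control day 30 replicate 4 (0.0455). With library weights BIRC3, CFLAR, RIPK2, TRAF1 and TRAF3 passed (2.45e-05 to 0.0198).

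Within the grafts 2 of 26 genes passed between day 14 and day 30, BCL2L1 (log2 change 0.68, SE 0.20, adjusted p = 0.0267) and RIPK1 (log2 change 0.85, SE 0.23, adjusted p = 0.019), both higher at day 30, against 16.3% of all genes, 8.01% higher and 8.31% lower. The BCL2L1 values of day 30 lay above all those of day 14, while RIPK1 overlapped. The days also did not overlap for BAK1 and TRAF4, both lower at day 30, so that 3 of 26 genes stood apart, against 15.7% of all genes, 7.29% higher and 8.46% lower. Neither call was stable. BCL2L1 was lost without graft day 14 replicate 3 (adjusted p = 0.0881) or graft day 30 replicate 3 (0.0648) or 4 (0.0644). RIPK1 was lost without graft day 14 replicate 2 (0.0533) or 4 (0.0558) or graft day 30 replicate 3 (0.057).

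The unoperated arteries of day 30 differed among themselves in BIRC3 by over an order of magnitude. BIRC3 was at 3.19, 60.1, 118 and 2.84 FPKM in control day 30 replicates 1 to 4, and in replicate 3 it exceeded MCL1. RIPK2 was at 3.49, 12.02, 19.1 and 3.09 FPKM and FAS at 6.31, 16.4, 21.0 and 8.22 FPKM in the same libraries, so replicates 2 and 3 were high for all of BIRC3, RIPK2 and FAS. The same replicates were high for genes of the NF-kB list: TNFAIP3, an NF-kB target that damps the pathway, was at 1.3, 30.0, 59.9 and 0.96 FPKM, and REL, an NF-kB subunit, at 0.40, 5.32, 9.14 and 0.74 FPKM. BCL3, a nuclear partner of NF-kB, was at 1.57, 9.98, 17.3 and 1.34 FPKM. The cytokine gene IL1B, of the list on lytic death, was at 0.33, 13.8, 29.7 and 8.12 FPKM. TNFAIP3, REL, BCL3 and IL1B were chosen for this comparison after their values were seen. Replicate 2, the lower of the pair for each of these genes, is the mixture-like library of the group.

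The summed neutrophil markers CSF3R, S100A8 and S100A9 (3 of 5 listed were found) were 11.8, 615, 1014 and 370.3 FPKM in the 4 controls of day 30. They were 359 to 408 FPKM in the controls of day 14, where BIRC3 was 0.78 to 1.81 FPKM, and 72.5 to 153 and 87.6 to 207 FPKM in the grafts of day 14 and day 30. Their part in the BIRC3 values was not tested. Between days the controls passed for 3 of 26 genes, against 10.7% of all genes, 6.28% higher and 4.45% lower at day 30: BIRC3 (log2 change 3.10, SE 0.83, adjusted p = 0.0221), RIPK2 (log2 change 1.24, SE 0.36, adjusted p = 0.0337) and, lower at day 30, BIRC6 (log2 change -1.24, SE 0.36, adjusted p = 0.0318). BIRC6 was listed at 0 in 3 of the 4 controls of day 30. The same 3 genes had no overlap between the control days, against 22.8% of all genes, 12.8% higher and 10.0% lower.

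Each of these calls between control days was lost in some fits that left out 1 library. For BIRC3 these left out control day 30 replicate 2 (adjusted p = 0.0828), its replicate 3 (0.0646), or control day 14 replicate 1 (0.0587) or 3 (0.0543). For RIPK2 they left out control day 30 replicate 2 (adjusted p = 0.114), its replicate 3 (0.0929, with a log2 change of 0.82) or any control of day 14 (0.0624 to 0.0837). For BIRC6 they left out any control of day 14 or control day 30 replicate 1, 2 or 4 (0.0552 to 0.0935). Without control day 30 replicates 2 and 3 together, grafts of day 30 passed as higher for BIRC3, BIRC6, FAS, RIPK2 and TRAF1 as well.

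**Figure D5:**
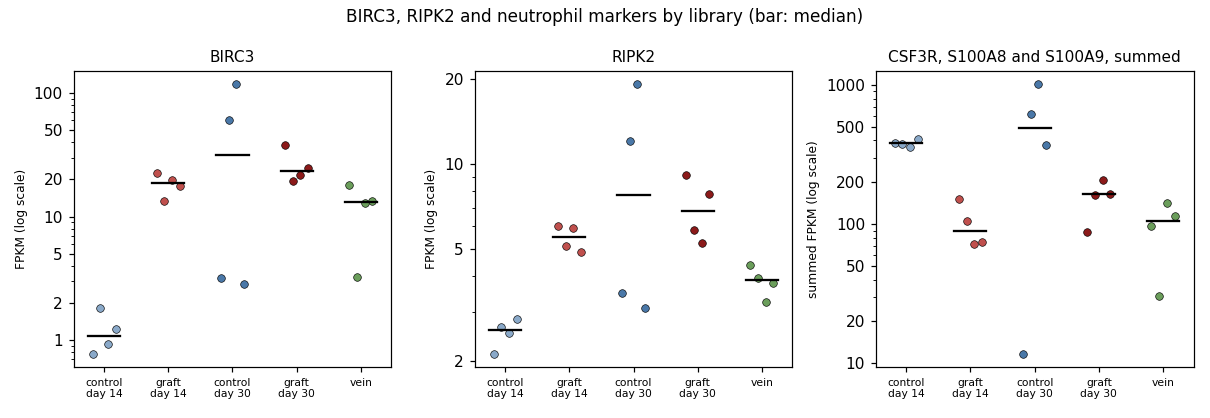
BIRC3, RIPK2 and the sum of CSF3R, S100A8 and S100A9 (FPKM, log axes) in each library (points) by group, with the median (bar). Control day 30 replicates 2 and 3 reach 60.1 and 118 FPKM of BIRC3, while the other 2 lie near 3 FPKM.

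Vein was compared with the mean of both control groups, which are the control libraries of the graft comparisons as well. Of 26 genes 8 passed, against 37.1% of all genes. TNFSF10 (log2 change 2.15, SE 0.21, adjusted p = 2.79e-07), TRADD (log2 change 0.96, SE 0.15, adjusted p = 6.67e-05), BOK (log2 change 0.84, SE 0.17, adjusted p = 0.000811) and APAF1 (log2 change 0.52, SE 0.13, adjusted p = 0.00381) were higher in vein. BCL2L1 (log2 change -1.07, SE 0.17, adjusted p = 7.77e-05), BCL2 (log2 change -0.85, SE 0.22, adjusted p = 0.00501), MCL1 (log2 change -0.66, SE 0.16, adjusted p = 0.00396) and RIPK1 (log2 change -0.54, SE 0.20, adjusted p = 0.0411) were lower. Vein and arteries did not overlap for 6 of the 26, namely APAF1, BCL2L1, BOK, MCL1, TNFSF10 and TRADD, against 24.2% of all genes, 16.2% higher and 7.96% lower. BAX (log2 change -0.17, SE 0.19, adjusted p = 0.531) and BAK1 (log2 change 0.31, SE 0.18, adjusted p = 0.191) did not pass. The RIPK1 call was lost in 8 of 12 fits that left out 1 library: without control day 14 replicate 1, 2 or 3, control day 30 replicate 2 or 3, or vein replicate 1, 2 or 4 (adjusted p = 0.0548 to 0.122). With control day 14 as 1 sample and no mixture-like library, 3 genes passed (BCL2L1, TNFSF10 and TRADD). Grafts were not tested against vein; side by side, TNFSF10 averaged 13.6, 12.2 and 10.8 FPKM in grafts of day 14, grafts of day 30 and vein, and BAX 37.9, 26.8 and 10.6 FPKM.

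Other genes of the same pathways were counted from lists that hold none of the 38. Of death ligands and receptors 13 of 16 were found and 9 tested. At day 14, 7 were higher and 1 lower in grafts, and at day 30, 5 and 1. Over all genes these shares were 36.5% and 17.0% at day 14 and 26.0% and 11.6% at day 30. TNFRSF21, a death-domain receptor, was at 24.8, 17.2, 25.1 and 25.3 FPKM in grafts of day 14 and 2.66, 3.21, 3.04 and 2.64 FPKM in controls (log2 change 2.62, SE 0.15, adjusted p = 2.77e-10). TNFRSF1A, the main TNF receptor that recruits TRADD, was at 32.4 ± 2.46 and 15.3 ± 1.18 FPKM (log2 change 1.03, SE 0.11, adjusted p = 6.38e-07), and TNFRSF1B, the TNF receptor of white blood cells, at 24.3 ± 6.9 and 3.82 ± 0.417 FPKM (log2 change 2.35, SE 0.23, adjusted p = 1.16e-07). TNFRSF12A, the receptor of TWEAK, was at 1.38 ± 0.531 FPKM in grafts of day 14 and 5.93 ± 1.05 FPKM in controls, with every graft below every control. At day 30 it was lower in grafts as well (log2 change -1.91, SE 0.20, adjusted p = 9.24e-07).

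Of the NF-kB list 20 of 23 were found and 17 tested, with 8 passing at day 14 and 3 at day 30, each of them higher in grafts. Over all genes 36.5% were higher at day 14 and 26.0% at day 30. NFKBIE, an inhibitor that holds NF-kB in the cytoplasm, was at 13.3, 9.27, 16.7 and 19.96 FPKM in grafts of day 14 and 0.53, 0, 0.25 and 0.22 FPKM in controls (log2 change 3.63, SE 0.25, adjusted p = 1.8e-09). BCL3 was at 13.4 ± 1.83 and 1.59 ± 0.537 FPKM (log2 change 2.49, SE 0.47, adjusted p = 0.000236), which did not pass with control day 14 as 1 sample and no mixture-like library (adjusted p = 0.0848).

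Of genes for the execution of apoptosis and for lytic death 15 of 21 were found and 12 tested. At day 14, 5 were higher and 2 lower (36.5% and 17.0% of all genes), and at day 30, 5 and 1 (26.0% and 11.6%). PYCARD, the adaptor of inflammasomes, was at 17.4, 15.9, 15.1 and 15.5 FPKM in grafts of day 14 and 0.15, 0.29, 0.92 and 0.33 FPKM in controls (log2 change 3.60, SE 0.27, adjusted p = 6.88e-09). At day 30 it had 5.65 ± 2.29 and 1.28 ± 0.934 FPKM, and its graft effect differed between days (-2.05, SE 0.39, adjusted p = 0.00222), a difference that did not pass once control day 14 was a single sample (adjusted p = 0.0783). GSDMD, the pore protein of pyroptosis, was at 3.49 ± 0.0763 and 0.233 ± 0.0499 FPKM at day 14 (log2 change 1.87, SE 0.11, adjusted p = 3.38e-10). ROCK1, a kinase that drives membrane blebbing in dying cells and also controls smooth muscle contraction, had 3.37 ± 2.6 FPKM in grafts of day 14 and 33.9 ± 2.0 FPKM in controls (log2 change -3.21, SE 0.39, adjusted p = 1.8e-06).

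Of other apoptosis regulators 24 of 31 were found and 20 tested, with 8 higher and 3 lower at day 14 and 4 and 3 at day 30. The HSP70 co-chaperones BAG2 and BAG3 were among the lower genes. BAG2 was at 19.2, 10.5, 16.5 and 14.6 FPKM in grafts of day 14 and 198, 192, 193 and 195 FPKM in controls (log2 change -3.62, SE 0.18, adjusted p = 5.89e-11), and BAG3 at 31.4 ± 2.59 and 238 ± 2.86 FPKM (log2 change -2.88, SE 0.19, adjusted p = 1.26e-09). BNIP3, a mitochondrial gene induced by hypoxia, was at 78.6 ± 10.1 and 36.2 ± 3.4 FPKM (log2 change 1.09, SE 0.10, adjusted p = 4.52e-08). Over all genes tested, 36.5% were higher and 17.0% lower at day 14, and 26.0% and 11.6% at day 30.

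Beside these results, cell type markers were summed in each library. Summed macrophage markers (14 of 14 found) were 265 to 587 FPKM in grafts of day 14 against 16.4 to 18.0 FPKM in controls. In these controls CD68, C1QA, C1QB, AIF1 and MARCO were listed at 0. C1QA, C1QB and AIF1 did not exceed 0.41 FPKM in the grafts either. Of 8 tested, 6 were higher and 1 lower in grafts at day 14, against 36.5% and 17.0% of all genes. CYBB was lower, at 0.55, 0.16, 0.57 and 0.64 FPKM against 1.1, 1.37, 1.71 and 1.42 FPKM in controls. At day 30 the macrophage sums were 222 to 395 against 20.3 to 39.9 FPKM, and in vein 51.3 to 118 FPKM. CD68 and AIF1 were at 0 in the controls of day 30, where 6 of 8 markers were higher in grafts (26.0% of all genes). Summed T cell markers (9 of 10 found) were 20.2 to 29.8 against 0.63 to 0.85 FPKM at day 14 and 17.8 to 32.2 against 0.28 to 5.28 FPKM at day 30, and B and plasma cell markers (5 of 6) 32.2 to 72.0 against 0.070 to 1.99 FPKM and 83.5 to 436 against 1.59 to 14.2 FPKM. The defining genes LCK (grafts of day 14) and CD28 (both control groups) were at 0. Proliferation genes (6 of 6) were 30.2 to 59.4 against 2.03 to 2.49 FPKM and 15.9 to 26.2 against 3.17 to 5.45 FPKM.

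Contractile smooth muscle markers (6 of 8 found, with SMTN at 0 in all groups) were lower in grafts, at 617 to 935 FPKM in grafts of day 14 against 8312 to 8831 FPKM in controls, and 1355 to 1783 against 6084 to 8727 FPKM at day 30. They were at 3586 to 3863 FPKM in vein. Skeletal muscle markers (4 of 5) were 4.58 to 64.8 against 391 to 439 FPKM and Schwann cell markers (5 of 5) 0.26 to 2.13 against 60.4 to 71.6 FPKM at day 14. Most of the skeletal muscle sum was TCAP, at 379, 426, 420 and 388 FPKM in these controls. Of the skeletal muscle genes 2 were tested and 2 were lower in grafts, against 17.0% of all genes. TNNT3, not tested, was at 0.08, 0.49, 0.4 and 0.11 FPKM in grafts and 0, 0, 0.08 and 0 FPKM in controls. Endothelial markers (8 of 8) were 129 to 388 against 54.7 to 57.8 FPKM at day 14 and 507 to 616 FPKM in vein. PECAM1 was at 0 in both control groups, and at 3.06, 0, 0 and 0 FPKM in grafts of day 14. Of 7 tested, 4 were higher and 1 lower in these grafts, against 36.5% and 17.0% of all genes. ESAM was at 14.0, 17.8, 6.31 and 3.62 FPKM in them and 17.3, 18.7, 17.0 and 16.65 FPKM in controls. Fibroblast markers (5 of 5) were 359 to 689 against 1127 to 1300.5 FPKM at day 14. At day 30 they were 1062 to 1218 against 804 to 1771 FPKM, with overlap. Adipocyte markers (3 of 4, CIDEC at 0) were 128 to 567 against 25.9 to 29.7 FPKM at day 14. In the grafts ADIPOQ was at 77.9, 90.1, 50.3 and 46.6 FPKM and LPL at 49.6, 80, 436 and 521 FPKM. The fibroblast genes did not move together at day 14. Of the 5, 2 passed as lower and 0 as higher, with a median log2 change of 0.11. Over all genes 17.0% were lower and 36.5% higher. PI16 was at 41.5, 72.1, 13.2 and 2.82 FPKM in grafts of day 14 and 533, 723, 682 and 593 FPKM in controls. DCN was also lower without overlap, while PDGFRA, DPT and LUM overlapped between grafts and controls. In RNA of whole vessels, fewer cells of a type and less RNA per cell cannot be told apart. The part of these cell types in the changes of BCL2A1, BAX, BCL2 and the others was not tested.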

How the data were processed

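RNA was measured in 20 libraries of rabbit vessels, 4 in each of 5 groups. The authors deposited 1 table of FPKM values per transcript. Per the labels' protocols, total RNA was extracted with TRIzol and sequenced as paired reads. Per the submitters' processing notes, fastp, HISAT2, StringTie, RSEM and DESeq2 were used, in an order and for a genome build not given in the sources used here. The table holds no counts, so depth, and with it the precision of each value, is unknown. Vein columns were matched to samples by library name.

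FPKM were summed per gene ID (23669 genes, 24964 transcript rows). Sums per library ran from 327806 to 671582 FPKM, and 6759 to 7740 genes reached 1 FPKM. The 8657 genes at 1 FPKM or more in 4 libraries were transformed to log2 of the deposited FPKM plus a pseudocount of 1 and tested with limma 3.58.1 (trend, R 4.3.3), over all 20 libraries, in 6 contrasts, two-sided, with Benjamini-Hochberg adjustment over all genes and a threshold of 0.05. Errors of changes are limma's standard errors. The test script was tested on simulated data. Tables were handled with Python 3.11.15, pandas 2.3.3 and numpy 2.4.6 and figures drawn with matplotlib 3.10.9.

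Each result was also computed with another pseudocount (0.1), another filter (5 FPKM) or none, median-of-ratios scaling, TPM scaling, quantile normalization, only the groups compared, library weights, a replicate block and leaving out each library. Another 5 changes (treating control day 14 as 1 sample, leaving out libraries close to a mixture of their group, both of these, dropping genes listed at 0, and dropping control day 30 replicates 2 and 3) were added after seeing the data. Every member could be named, and up to 4 genes per pathway list and contrast with the smallest adjusted p. Members, lists and this rule were chosen with earlier results of these data known. Sequences and coordinates were not used here, and some genes are not reported here.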

Additional observations from a re-analysis of the deposited data

Results flagged for a closer look

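In 6 of 130 sets of 4 values, for 26 genes in 5 groups, 1 library lay apart from the other 3 by Dixon's criterion, and chance gives about 1 in 20. BAK1 was at 32.82 FPKM in graft day 14 replicate 1, with the others at 28.23, 28.55 and 28.93 FPKM. It was also at 9.4 FPKM in control day 14 replicate 3, with the others at 5.34, 5.4 and 6.03 FPKM. The same control library was low for TNFSF10, at 0.42 FPKM against 1.66, 1.67 and 1.84 FPKM, and for TRAF4, at 0.19 FPKM against 2.13, 2.19 and 2.35 FPKM. BCL2 was at 3.12 FPKM in vein replicate 1 and at 1.78, 1.84 and 1.89 FPKM in the other veins. BIRC6 was at 1.56 FPKM in control day 30 replicate 3 and listed at 0 in the other 3 controls of that day.

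The graft effect on BCL2L1 differed between the days by 0.91 on the log2 scale (limma, adjusted p = 0.0378), with grafts below controls on both days and the smaller difference at day 30.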

How the results depend on the processing

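No call reversed its direction over the alternatives run. Of the genes that had not passed, 2 passed with the sign turned: RIPK2 at day 30 (log2 change -0.08, and 0.87 without control day 30 replicates 2 and 3) and MCL1 between graft days (0.11, and -0.28 with library weights). At day 14, 10 of 18 genes passed in all 21 settings that tested them, at day 30, 5 of 11 in all 20 settings, and in vein 3 of 8 in all 26. With control day 14 counted as 1 sample, 11 genes passed at day 14, 0 in the difference between days and 0 between control days. Without the mixture-like libraries, 1 passed between graft days and 0 between control days. With both changes 10 passed at day 14, 0 in the difference, 0 between control days and 3 in vein. Library weights gave 12 calls in the difference, 12 between graft days and 9 between control days. Where no share of all genes stands beside a count in this section, the count is not read as a trait of these genes. The filter at 5 FPKM gave 2 of 18 tested in the difference, where 381 of 5264 genes were higher and 610 lower. Leaving out genes listed at 0 also gave 2 in the difference. TPM scaling gave 0 there. With no filter 5 of 36 passed between graft days, where 713 of 16474 genes were higher and 693 lower. Between control days 1 of 36 passed, where 491 genes were higher and 374 lower. With only the groups compared 0 passed between graft days and 1 between control days. Without control day 30 replicates 2 and 3, 2 passed in the difference and 1 between control days. The causes were not tested. In the limma fit of all libraries, unadjusted p was below 0.05 for 9 genes in the difference, 5 between graft days and 7 between control days. Where control day 14 counted as 1 sample, it was assumed to vary like the other groups.

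Leaving out 1 library gave 14 to 17 genes at day 14, 9 to 11 at day 30, 0 to 3 in the difference, 0 to 3 between graft days, 0 to 5 between control days and 7 to 9 in vein. The difference held 3 calls without graft day 14 replicate 2, 2 without control day 30 replicate 3, and 0 without control day 14 replicate 1, 2 or 4 or graft day 30 replicate 2, 3 or 4. Between graft days 1 call was left without graft day 14 replicate 3 or 4 or graft day 30 replicate 4, and 0 without graft day 30 replicate 3. Between control days 0 were left without control day 14 replicate 1 or 3 or control day 30 replicate 2, 1 without control day 14 replicate 2 or 4 or control day 30 replicate 3, and 5 passed without control day 30 replicate 1.

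Deviations from group means were little correlated between samples of the same replicate number, which cannot show whether the numbers pair animals. Each group holds 4 libraries, and the deviations in control day 14 were small. Correlations of deviations between grafts and controls of the same number were 0.13, -0.08, -0.11 and 0.04 at day 14 and -0.04, -0.18, 0.06 and -0.04 at day 30. With the replicate number as a block, 15 genes passed at day 14, 11 at day 30, 3 in the difference, 2 between graft days, 3 between control days and 8 in vein. FPKM carry no read numbers, so the depth behind genes under 1 FPKM, most caspases among them, is unknown.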

Other observations

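Cytochrome c and SMAC act between the mitochondrial pore and the caspases, and their genes CYCS and DIABLO were found in the table through NCBI gene numbers rather than by name. They were added after their values were seen. CYCS was at 101, 106, 141 and 143 FPKM in grafts of day 14 and 81.1, 80.1, 84.8 and 83.9 FPKM in controls, with all grafts above all controls (log2 change 0.55, limma, adjusted p = 0.000637). At day 30 it was at 101, 73.3, 75.7 and 83.1 FPKM in grafts and 113, 113, 117 and 99.8 FPKM in controls, and there the grafts were lower (log2 change -0.41, adjusted p = 0.00907). The graft effects on CYCS differed between the days by -0.96 (adjusted p = 0.00114). The difference was lost under TPM scaling (adjusted p = 0.0573), when control day 14 was averaged to 1 sample (0.0727) and when the mixture-like libraries were dropped as well (0.448). The day 14 call was lost under median-of-ratios scaling (0.0619), TPM scaling (0.267), after averaging control day 14 to 1 sample (0.0582) and after both sample changes (0.204). The CYCS call of day 30 was lost without the mixture-like libraries (0.0538) and without control day 30 replicates 2 and 3 (0.0822). DIABLO was at 24.4, 24.8, 29.7 and 29.1 FPKM in grafts of day 14 and 16.4, 15.8, 16.0 and 17.1 FPKM in controls (log2 change 0.69, adjusted p = 2.44e-05). The day 14 call was lost under TPM scaling (0.0698) and after both sample changes (0.0578). At day 30 DIABLO was higher in grafts as well (log2 change 0.38, adjusted p = 0.00782). That call was lost under median-of-ratios scaling (0.178), TPM scaling (0.688, with a log2 change of 0.13) and quantile normalization (0.0556), and without control day 30 replicates 2 and 3 (0.0502). Between days the graft effects on DIABLO did not differ past the threshold (-0.31, adjusted p = 0.182).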
